A study of Rattus norvegicus with 48 samples.

Results

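Cortex of rats killed 24 h after a dose of 3 mg/kg RDX was set against cortex of rats killed 4 h after the same dose. The comparison rests on 6 of the 48 arrays of the study, 3 at each time. The arrays were taken by the dose and time in their labels, and this pair of times was picked knowing that its measures of RNA degradation were alike. RDX is a nitramine explosive that blocks the GABA type A receptor, the chloride channel through which most fast inhibition in the brain runs. The rats were male Sprague-Dawley animals weighing between 300 and 400 g, and the whole study took their cortex and liver at 0, 4, 24 and 48 h after a single oral capsule holding 3 or 18 mg/kg, doses meant not to cause seizures. All of the animals were housed in pairs with light and dark for 12 h each and free access to food. Both groups compared here had received RDX, and the labels name no vehicle-treated animals at 4 or 24 h, so time since dosing, time of day and handling cannot be told apart. Age, the clock time of dosing and killing, and whether the 3 arrays of a group stand for 3 animals are not given. The p-values measure the spread between arrays, which may in part be technical.

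Between an early and a late time after a dose, several groups of cortical transcripts are known to move for different reasons. Immediate early genes such as Fos and Egr1 follow neuronal firing within minutes, glucocorticoid-induced genes such as Sgk1 follow the stress hormone and its daily cycle, and clock output genes such as Dbp follow the time of day. A piece of cortex also holds whatever tissue was dissected with it, and the choroid plexus, the ependyma with its motile cilia, the striatum and the thalamus have transcripts of their own. In whole tissue, fewer cells of a type and less RNA per cell cannot be told apart.

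Every value below is on the log2 scale, on which a difference of 1 is a doubling, and differences are 24 h minus 4 h with the standard error (SE) of the model. The actin 3' minus 5' gap, which grows as RNA degrades and entered the choice of these groups, was 2.09 ± 0.37 (SD, n = 3) at 4 h and 2.09 ± 0.08 at 24 h. Snap25, which marks neurons, lay between 13.07 and 13.34 on the 6 arrays, against 4.51 to 6.58 on the 24 liver arrays. At 4 h, however, replicate 1 carried liver transcripts. The mean of 19 hepatocyte transcripts was 9.88, 5.33 and 5.13 on the 4 h arrays and 5.39, 5.32 and 5.76 on the 24 h arrays, and Alb, the serum albumin gene, was at 13.64, 7.69 and 6.96 and then at 7.99, 8.08 and 9.58. Among the 24 h arrays, replicate 3 was the highest in both. All 19 hepatocyte transcripts were lower at 24 h, by a median of -1.35, and without 4 h replicate 1 that median was 0.20. Probe sets that followed Alb on the other 18 cortex arrays (r of at least 0.7) and were at least 1 higher in liver numbered 337, for 267 genes. Of these, 310 were highest on 4 h replicate 1 and 301 were lower at 24 h, with a median difference of -0.45 that became 0.10 without this array. They are not named as differences between the times.

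No probe set passed. With limma and Benjamini-Hochberg adjustment, 0 of 31042 probe sets had an adjusted p under 0.05, and the smallest adjusted p was 0.085. At an unadjusted p under 0.05 there were 2091 (6.74%), of which 1327 (4.27%) were higher and 764 (2.46%) lower at 24 h. The median difference over all probe sets was 0.01 and the median SE 0.13, and 118 probe sets differed by more than 1. Counted by gene, with the brightest probe set of each of 14217, the 3 arrays at 24 h each lay above all 3 arrays at 4 h for 1610 genes (11.3%) and all below for 1113 (7.83%). With the variance taken from the 6 arrays alone, 3 probe sets passed and all were lower. With the actin gap as a covariate 11 passed, 10 of them higher. No single omission of an array gave any call. The genes below are thus named by the order of their unadjusted p and not as changed genes, and each difference is given with its spread.

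The genes most clearly higher at 24 h included a group that builds or serves motile cilia, the beating cell extensions that move cerebrospinal fluid over the ependyma. Cfap144, a cilia and flagella associated protein, was at 5.27, 5.81 and 5.68 at 4 h and at 6.42, 6.68 and 7.25 at 24 h. Every 24 h array lay above every 4 h array, and the difference was 1.20 ± 0.22 (SE; limma adjusted p = 0.135). A second probe set of Cfap144 differed by 1.22. Dynlrb2, a dynein light chain of the roadblock family, was at 6.75, 7.01 and 6.88 at 4 h and at 7.86, 7.86 and 8.47 at 24 h. Its groups did not overlap either, and it was 1.18 ± 0.22 higher (adjusted p = 0.14). Mlf1, myeloid leukemia factor 1, went from 4.62, 4.68 and 4.79 to 5.36, 5.64 and 6.63, with 24 h replicate 3 far above its partners. Its difference of 1.18 ± 0.26 had an adjusted p of 0.34 and was 0.80 without that array. Pierce1, a protein inside the microtubule wall of cilia, was higher by 0.54 ± 0.12 on its brighter probe set and by 0.51 on the other. Foxj1, the transcription factor that switches on the programme of motile cilia, was at 5.82, 6.16 and 6.20 and then at 6.48, 6.51 and 6.63. It was 0.48 ± 0.16 higher with no overlap (adjusted p = 0.54).

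The stretches before the transcription start of these genes are shown because the cilia genes moved side by side in the same arrays and because RFX factors, which act with Foxj1, bind a short motif spelled GTTGCC. The sequences are the 250 bases before the start from RefSeq (GRCr8), 5′ to 3′ on the gene's strand, with GTTGCC or its reverse complement GGCAAC in capitals. Cfap144 (chr10:44019282-44019531, minus strand) holds 3 matches, Pierce1 (chr3:32199562-32199811, minus strand) and Mlf1 (chr2:153958341-153958590, plus strand) hold 1 each, and Dynlrb2 (chr19:61428830-61429079, plus strand) holds none.
Cfap144: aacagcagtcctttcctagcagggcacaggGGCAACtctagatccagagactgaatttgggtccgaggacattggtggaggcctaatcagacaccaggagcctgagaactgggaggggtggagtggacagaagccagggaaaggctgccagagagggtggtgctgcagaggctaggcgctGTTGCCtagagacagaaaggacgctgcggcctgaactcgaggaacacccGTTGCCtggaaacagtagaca
Pierce1: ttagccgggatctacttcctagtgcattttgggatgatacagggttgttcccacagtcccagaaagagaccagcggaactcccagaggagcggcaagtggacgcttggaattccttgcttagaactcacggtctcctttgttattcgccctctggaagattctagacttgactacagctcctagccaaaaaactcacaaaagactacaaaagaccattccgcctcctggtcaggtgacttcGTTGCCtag
Mlf1: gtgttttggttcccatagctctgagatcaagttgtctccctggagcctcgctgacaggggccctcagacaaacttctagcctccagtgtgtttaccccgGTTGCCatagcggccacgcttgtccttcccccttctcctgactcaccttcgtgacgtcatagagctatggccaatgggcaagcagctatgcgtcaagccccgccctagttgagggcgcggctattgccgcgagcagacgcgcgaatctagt
Dynlrb2: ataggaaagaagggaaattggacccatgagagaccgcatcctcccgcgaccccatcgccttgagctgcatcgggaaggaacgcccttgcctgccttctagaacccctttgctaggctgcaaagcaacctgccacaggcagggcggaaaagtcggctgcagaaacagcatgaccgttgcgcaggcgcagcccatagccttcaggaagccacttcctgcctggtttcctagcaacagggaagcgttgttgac
The match nearest to a start begins 9 bases before that of Pierce1, and those of Cfap144 begin 220, 70 and 21 bases before its own. Of 33469 rat promoters, 9.89% hold GTTGCC on either strand in this window. Of the 44 matched promoters of a list of motile cilium genes, 15 (34.1%) do. That list and this motif were chosen after the values were seen, and a match is a string of letters and not a shown binding site.

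The list of motile cilium genes has 55 names, of which 30 were measured by a probe set of their own. On the 6 arrays 28 of the 30 were above 0 and 17 did not overlap, all of them higher, where 11.3% of all genes were higher without overlap. None passed the adjusted threshold. The median difference was 0.27, beside 0.02 over all genes, and 0.22 without 24 h replicate 3. The mean of the list was 5.41, 5.63 and 5.58 at 4 h and 5.78, 5.87 and 6.06 at 24 h, so the groups did not overlap. Since the list was written after Cfap144, Dynlrb2 and Mlf1 had been seen to lead, these counts describe the arrays and support nothing further.

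**Figure D1:**
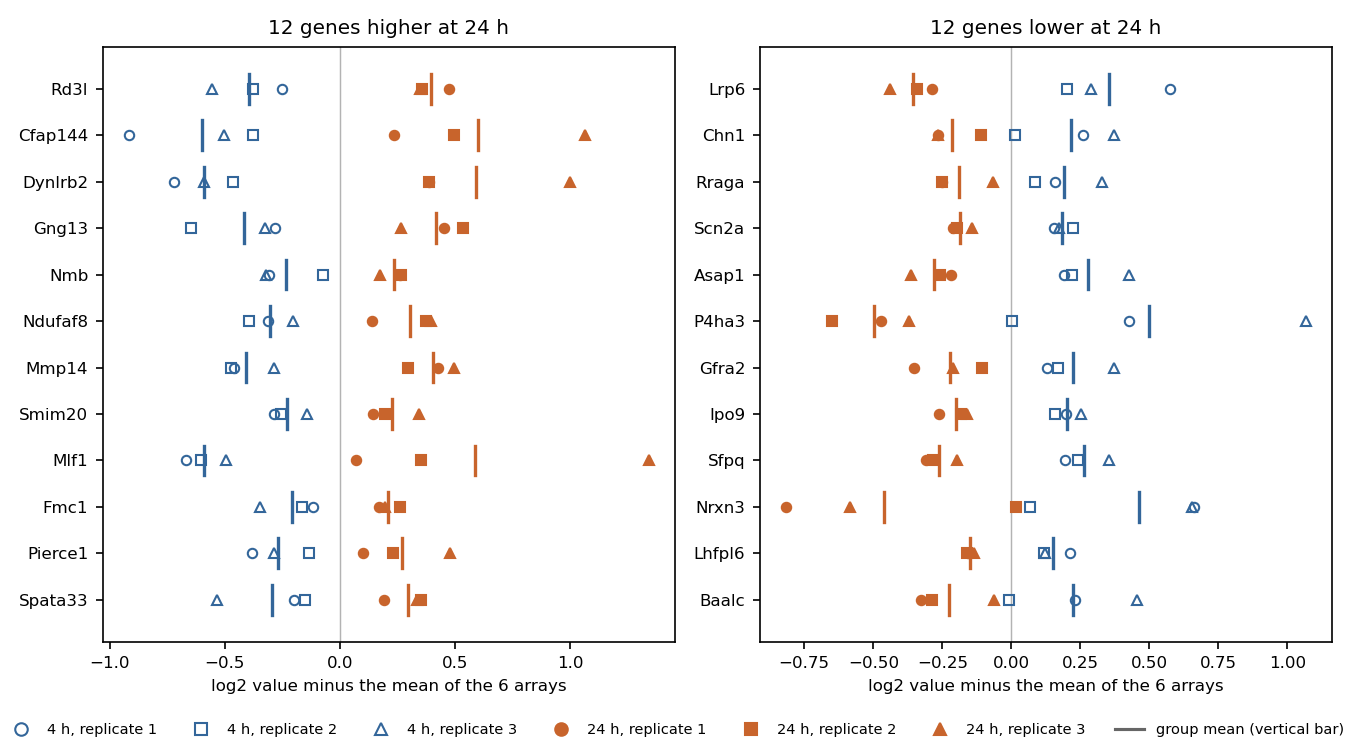
Level of the 12 genes with the smallest unadjusted p in each direction, as the log2 value of each array minus the gene's mean over the 6 arrays. Open blue symbols are 4 h, filled orange symbols 24 h, shapes are replicates 1 to 3, and vertical bars are group means; in all 24 genes the groups do not overlap, and none passed the adjusted threshold.

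The other genes of the leading 12 had varied roles. Rd3l, a relative of the retinal protein RD3, was at 5.41, 5.28 and 5.10 at 4 h and at 6.13, 6.02 and 6.01 at 24 h. The arrays of each time were close together, and the difference of 0.79 ± 0.13 shared the smallest adjusted p of 0.085. Rd3l and Mlf1 are dim on these arrays, below the median brightness of the cortex probe sets. Gng13, a gamma subunit of G proteins, was higher by 0.84 ± 0.17, Mmp14, a membrane-bound matrix protease, by 0.81 ± 0.18 and Nmb, the peptide neuromedin B, by 0.47 ± 0.10. A second probe set of Mmp14 differed by only 0.07. Ndufaf8, an assembly factor of respiratory complex I, was higher by 0.61 ± 0.13, Smim20 by 0.46 ± 0.10, Fmc1, an assembly factor of the ATP synthase, by 0.42 ± 0.09 and Spata33 by 0.59 ± 0.13. Adjusted p lay between 0.085 and 0.34 for all 12.

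Markers of the choroid plexus, which secretes cerebrospinal fluid, and of the ependyma lay higher at 24 h as well. All 10 measured members were above 0, where 54.0% of all genes were, with a median of 0.56 and 2 without overlap (11.3% over all genes). Ttr, the thyroid hormone carrier transthyretin and the most abundant choroid plexus transcript, was at 11.94, 11.96 and 13.40 at 4 h and at 13.29, 13.46 and 13.63 at 24 h. Replicate 3 at 4 h lay among the 24 h arrays, and the difference was 1.03 ± 0.35 (adjusted p = 0.53). Leaving out 4 h replicate 1, which carried liver transcripts, gave 0.78. Without 4 h replicate 2 or 3 the difference was 0.79 or 1.51. Sostdc1, a secreted antagonist of BMP and Wnt signals made there, was at 4.60, 6.66 and 8.33 and then at 8.11, 8.75 and 9.49. The 4 h arrays alone spanned more than 3 units, and the difference of 2.25 had an SE of 0.83. It was 1.29 without 4 h replicate 1, the array with liver transcripts, and 3.15 without 4 h replicate 3. Kcne2, a potassium channel subunit of the choroid plexus, differed by 0.64 ± 0.24 on its brightest probe set and by 0.07 and 0.06 on the others. Enpp2, the enzyme autotaxin, made by choroid plexus and oligodendrocytes, was 0.57 ± 0.24 higher and did not overlap. It was not a member of this list but of the oligodendrocyte and myelin markers, where it was the highest. Of those 16 measured markers 11 were below 0, with a median of -0.08. The mean of the choroid plexus and ependymal list was 5.84, 6.13 and 6.80 at 4 h and 6.78, 6.93 and 7.24 at 24 h. Replicate 3 at 4 h thus matched the lowest 24 h array.

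Markers of thalamus and basal forebrain followed the same order. All 11 measured members were above 0, with a median of 0.53 and 4 without overlap (11.3% over all genes). Some of them, such as Calb2 and Pbx3, entered the list because they were known to be higher at 24 h than at 0 h in these arrays, so the list is no independent evidence. Calb2, the calcium buffer calretinin, was at 7.97, 8.52 and 8.12 and then at 8.60, 8.92 and 9.14. The lowest 24 h array was just above the highest 4 h array, and the difference was 0.68 ± 0.16 (adjusted p = 0.34). Prkcd, a kinase strongly expressed in thalamus, was at 8.04, 8.12 and 7.95 and then at 8.41, 8.21 and 9.29. Slc17a6, the vesicular glutamate transporter of thalamic neurons, was at 8.05, 8.31 and 7.83 and then at 8.13, 8.52 and 9.84. In both, 24 h replicate 3 stood more than 0.8 above every other array. Without it Prkcd differed by 0.28 and Slc17a6 by 0.26, against 0.60 ± 0.21 and 0.76 ± 0.31 with it, and the list's median fell to 0.26. Pbx3, a homeodomain factor, was 0.53 ± 0.17 higher with overlap. Calb2 also stood on a list of interneuron markers, and Slc17a6 on a list of pyramidal layer markers. Of 16 measured interneuron markers 12 were above 0, with a median of 0.07 and 3 higher without overlap (11.3% over all genes).

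The array at 24 h that was highest in thalamic markers was also the highest of the 6 in choroid plexus, cilium and blood cell transcripts. The 5 blood cell transcripts averaged 7.35, 7.62 and 7.45 at 4 h, then 7.77, 7.85 and 8.34 at 24 h. Their 5 differences were all above 0 with a median of 0.11. S100a8 and S100a9, calcium-binding proteins of neutrophils, made most of that: S100a9 was at 5.19, 6.15 and 5.41 and then at 6.66, 6.50 and 7.95, a difference of 1.46 ± 0.56. Hbb, the beta globin, was at 13.69, 13.56 and 13.69 and then at 13.56, 13.76 and 13.96, with overlap. Whether these transcripts came from tissue dissected with the cortex, and what part that plays in the other differences, was not tested. Striatal markers had 14 of 18 members above 0 and a median of 0.20, or 0.09 without 4 h replicate 3. Penk, the enkephalin precursor, went from 12.39, 12.64 and 11.99 to 12.79, 12.80 and 12.74, a difference of 0.44 ± 0.22, or 0.26 without 4 h replicate 3.

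**Figure D2:**
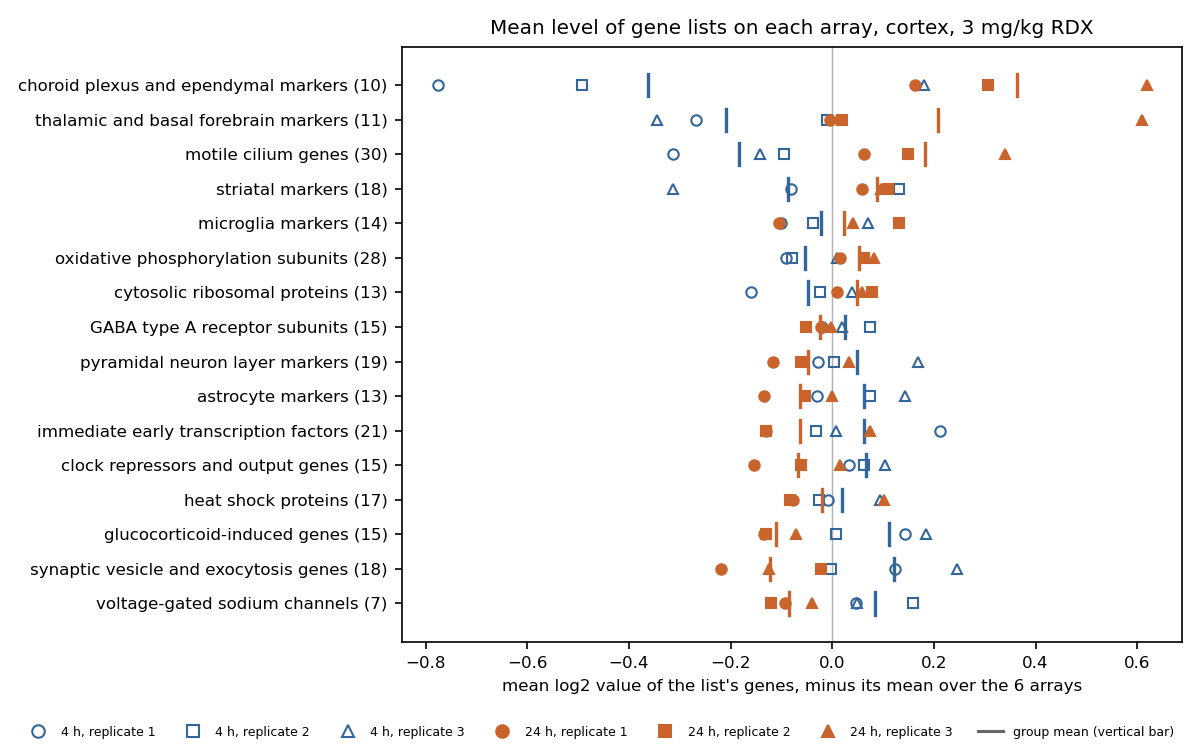
Mean log2 level of the measured genes of 16 lists on each of the 6 arrays, minus the mean of the list over these arrays, with the number of measured genes in parentheses. Open blue symbols are 4 h, filled orange symbols 24 h, shapes are replicates and vertical bars group means; choroid plexus, thalamic and cilium markers lie to the right at 24 h, and 24 h replicate 3 is the highest array in each of these.

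Mitochondrial transcripts differed by little, and none passed. Of 28 measured subunits of oxidative phosphorylation, the chain that makes ATP, 19 were above 0 (54.0% over all genes) and 11 were higher without overlap (11.3% over all genes), with none lower without overlap. The median was small, at 0.08. Ndufa2, a complex I subunit, was at 11.63, 11.53 and 11.50 and then at 12.08, 12.16 and 12.12. The arrays within each time differed by less than 0.14 and the times by 0.57 ± 0.14 (adjusted p = 0.34). Ndufb5, another subunit of complex I, was higher by 0.39 ± 0.11, Cox6c of cytochrome oxidase by 0.26 ± 0.10 and Ndufa1 by 0.28 ± 0.13, each without overlap. Cytosolic ribosomal proteins had 11 of 13 members above 0 and a median of 0.07, with Rps29 higher by 0.18 ± 0.07. Without 4 h replicate 1 that median was 0.016, and without both 4 h replicate 1 and 24 h replicate 3 it was -0.0069. It was 0.13 without 4 h replicate 3 and 0.12 without 24 h replicate 1. Hspe1, the mitochondrial chaperonin partner, was 0.35 ± 0.12 higher and did not overlap, whereas 13 of the 17 heat shock proteins of its list were below 0.

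Some genes outside the leading 12 were called in other fits. With the 14 cortex arrays whose actin gap was at most 3, a choice made after the data were seen, 8 probe sets passed, 7 of them higher. They included Cox8b, a muscle isoform of a cytochrome oxidase subunit, Churc1, a zinc finger protein, and Tmsb15b2, a beta thymosin. The small proteins Smim8 and Smim27 were also among them, as was Spmip6. Tmsb15b2 was at 8.37, 8.41 and 8.45 and then at 9.41, 9.45 and 9.14. Its difference of 0.92 ± 0.24 had an adjusted p of 0.35 over the 24 arrays and of 0.032 over the 14. Cox8b was at 5.15, 5.25 and 5.44 and then at 6.31, 6.14 and 6.45, and Churc1 at 9.55, 9.29 and 9.32 and then at 10.26, 10.35 and 10.06. Their groups were far apart, with differences of 1.02 ± 0.25 and 0.83 ± 0.20. These genes were named after their values were seen. With the actin gap as a covariate, Dynlrb2 and Rd3l passed (adjusted p = 0.032 for each), as did Mmp14 (0.044) and Churc1 (0.032).

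Among the genes lower at 24 h, several serve neurons and synapses. Scn2a, a voltage-gated sodium channel of axons, was at 11.36, 11.43 and 11.38 at 4 h and at 10.99, 11.01 and 11.06 at 24 h. Both groups were tight and did not overlap, and the difference was -0.37 ± 0.09 (adjusted p = 0.34). Nrxn3, a presynaptic adhesion molecule, was at 10.60, 10.01 and 10.59 and then at 9.12, 9.96 and 9.35. The nearest arrays of its groups were only 0.05 apart, although the mean difference was -0.92 ± 0.24, and a dim second probe set differed by 0.07. Chn1, a GTPase-activating protein of growth cones, was lower by -0.43 ± 0.10, and Gfra2, the neurturin receptor, by -0.45 ± 0.11. Lrp6, a Wnt coreceptor, was at 6.56, 6.19 and 6.28 and then at 5.70, 5.65 and 5.55, and had the smallest unadjusted p among the lower genes (difference -0.71 ± 0.16, adjusted p = 0.34). P4ha3, a collagen prolyl hydroxylase, was at 7.64, 7.21 and 8.28 and then at 6.74, 6.56 and 6.84. Asap1, an Arf GTPase activator, differed by -0.56 ± 0.14, with all 5 of its probe sets below 0. Rraga, a GTPase of amino acid sensing, differed by -0.38 ± 0.09, Ipo9, an importin, by -0.40 ± 0.10, Sfpq, a splicing factor, by -0.53 ± 0.14, Lhfpl6 by -0.30 ± 0.08 and Baalc by -0.45 ± 0.12. Of these 12 genes none passed, with adjusted p between 0.34 and 0.40.

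Genes of the synaptic vesicle cycle lay lower as a group. Of 18 measured, 17 were below 0 and 5 were lower without overlap, beside 7.83% of all genes, and the median was -0.20. Rims1, a scaffold of the release site, was at 6.31, 5.77 and 6.80 and then at 5.51, 5.44 and 5.68, a difference of -0.75 ± 0.23, or -0.50 without 4 h replicate 3. Snap25, part of the fusion machinery, was at 13.34, 13.20 and 13.33 and then at 13.12, 13.11 and 13.07. The groups did not overlap, but the size was only -0.19 ± 0.07. Nsf, the ATPase that takes fusion complexes apart, was below 0 on all 3 of its probe sets, at -0.23, -0.54 and -0.65. The mean of the list was 10.02, 9.90 and 10.15 at 4 h and 9.68, 9.88 and 9.78 at 24 h, the closest arrays being 0.02 apart. Without 4 h replicate 3 the median was -0.12. For sodium channels 6 of 7 lay below 0, the median being -0.17. Cux2, a marker of upper cortical layers, was at 8.25, 8.11 and 8.78 and then at 7.39, 7.52 and 7.75 (-0.83 ± 0.31), while its second probe set differed by -0.05. It was the lowest of 19 measured pyramidal layer markers. Of these, 12 were below 0 and 7 above, with a median of only -0.06.

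Because RDX acts at the GABA type A receptor, its subunits were read as a group. Of 15 measured, 8 were above 0 and 7 below, with a median of 0.02, and 1 was higher and 1 lower without overlap. Over all genes 11.3% were higher and 7.83% lower without overlap, so the subunits did not exceed that share, and leaving out single arrays moved their median to either side of 0. Gabre, the epsilon subunit, was at 4.51, 4.60 and 4.36 and then at 4.80, 4.77 and 4.76 (0.28 ± 0.11). Gabra3, the alpha3 subunit, was at 5.32, 5.48 and 5.68 and then at 4.89, 5.12 and 5.31 (-0.39 ± 0.29). Both are dim on these arrays and neither passed. Gad1, the enzyme that makes GABA, was at 12.56, 12.48 and 12.32 and then at 12.54, 12.47 and 12.35, nearly the same level at both times. Gabbr2, a subunit of the other, metabotropic GABA receptor, was at 11.83, 11.77 and 12.18 and then at 11.17, 11.30 and 11.44. It did not overlap and was lower by -0.62 ± 0.18 (adjusted p = 0.44). Among glutamate receptors 15 of 21 lay below 0, the median being -0.06. Grin2b, an NMDA receptor subunit, was lower by -0.59 ± 0.22 and Gria4, an AMPA receptor subunit, higher by 0.35 ± 0.13 on their brightest probe sets, but a second probe set of Grin2b differed by -0.07 and a second of Gria4 by 0.11.

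Glucocorticoid-induced genes lay lower at 24 h, with 13 of 15 below 0, 6 without overlap (7.83% over all genes) and a median of -0.24. None passed. Sgk1, a kinase that the hormone induces, was at 9.81, 9.94 and 10.19 at 4 h and at 9.39, 9.33 and 9.71 at 24 h. The groups did not overlap, with a difference of -0.50 ± 0.16 (adjusted p = 0.47). Slc2a1, the glucose transporter of the blood-brain barrier, was lower by -0.36 ± 0.13, Klf9 by -0.26 ± 0.11 and Nfkbia, the inhibitor of NF-kB, by -0.40 ± 0.18, or by -0.16 without 4 h replicate 3. Tsc22d3, the glucocorticoid-induced leucine zipper, was at 10.22, 10.35 and 10.32 and then at 9.99, 10.10 and 10.09, also without overlap. Fkbp5, a chaperone in the hormone's feedback loop, did overlap (-0.16 ± 0.20). The mean of the list was 8.31, 8.17 and 8.35 at 4 h and 8.03, 8.03 and 8.09 at 24 h, so each 24 h array lay below each 4 h array. Without 4 h replicate 3 the median was -0.16.

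Genes that follow neuronal firing did not all share a direction. Of 21 immediate early transcription factors 14 were below 0, and 4 were lower and 1 higher without overlap (7.83% and 11.3% over all genes). Their median of -0.07 was -0.011 without 4 h replicate 1 and -0.16 without 24 h replicate 3. Nr4a2, an orphan nuclear receptor, was at 7.61, 7.53 and 7.90 and then at 6.86, 6.98 and 7.26 (-0.64 ± 0.19, adjusted p = 0.44). Egr1 was at 12.08, 11.73 and 11.74 and then at 11.32, 11.35 and 11.53 (-0.45 ± 0.17). Neither overlapped, whereas Fos, the classic marker of firing, was at 8.57, 7.45 and 7.46 and then at 7.45, 7.54 and 8.76. A single array stood high at each time, 4 h replicate 1 and 24 h replicate 3, and the difference was 0.09 ± 0.56. Arc, a synaptic immediate early gene, was at 7.83, 7.03 and 7.74 and then at 7.26, 7.65 and 8.54, again highest on 24 h replicate 3 (0.28 ± 0.43). Many immediate early genes respond through cyclic AMP elements. The core of that element, TGACG, on either strand was in 11 of 17 matched promoters of the list, against 18.2% of all promoters, and the full element TGACGTCA in 4, against 1.59%.

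Clock genes differed little in cortex. Of 15 repressors and output genes 11 were below 0, with a median of -0.16 and 3 lower without overlap (7.83% over all genes). Dbp was at 9.34, 9.47 and 10.09 and then at 8.99, 9.39 and 9.42 (-0.37 ± 0.18), and Tef, a related factor, was lower by -0.33 ± 0.15, both with overlap. Without 4 h replicate 3 they differed by -0.14 and -0.15, and without 24 h replicate 1 Dbp differed by -0.23. Per2, a core repressor, was at 9.42, 9.24 and 9.15 and then at 8.97, 9.02 and 8.92, without overlap (-0.30 ± 0.18). Cry1 went the other way by 0.23 ± 0.14 and did not overlap. The E-box CACGTG, to which the clock activators bind, was in 4 of the 13 matched promoters of this list and in 5.59% of all promoters.

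Glial and vascular markers gave mixed signs. In microglia, the brain's resident phagocytes, 8 of 14 markers were above 0, and the median of 0.03 changed sign when 4 h replicate 1, 24 h replicate 2 or 24 h replicate 3 was left out. Tyrobp, an adaptor of activating receptors, was at 6.93, 6.96 and 6.89 and then at 7.21, 7.22 and 7.11 (0.25 ± 0.08). Its arrays were tight and did not overlap. P2ry12 (0.43 ± 0.18) and Aif1 (0.48 ± 0.21) did not overlap either, but their dimmer second probe sets differed by 0.10 and 0.21. Itgam, in contrast, differed by -0.24 ± 0.11. Tspo, a mitochondrial protein used to image glial reaction and chosen here after its values were seen, was at 6.97, 6.91 and 7.10 and then at 7.30, 7.67 and 7.91 (0.64 ± 0.15, adjusted p = 0.34). Astrocyte markers had 10 of 13 below 0. Gfap, the intermediate filament of astrocytes, was at 11.40, 11.71 and 11.92 and then at 11.07, 11.20 and 11.07 (-0.56 ± 0.28). Cytokines and chemokines had a median of -0.02 and unfolded protein response genes of -0.05.

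The same interval at the other dose used 6 other arrays, at 4 h and 24 h after 18 mg/kg, and no probe set passed in limma (0 calls). Unadjusted p-values under 0.05 numbered 2144 (6.91%). Those arrays had larger actin gaps, 3.66 ± 0.35 at 4 h and 3.30 ± 1.09 at 24 h. All 4 cilia genes among the leading 12 were above 0 there too, 3 of them without overlap. Cfap144 was at 5.99, 5.64 and 6.46 at 4 h and at 6.83, 6.85 and 6.74 at 24 h after 18 mg/kg, a difference of 0.77 ± 0.22. Dynlrb2 went from 7.14, 6.73 and 7.12 to 8.18, 7.20 and 7.72 (0.70 ± 0.22), and Mlf1 from 5.14, 4.84 and 4.95 to 5.93, 5.18 and 6.05 (0.74 ± 0.26). In these 3 the groups did not overlap at 18 mg/kg either, where 6.76% of genes were higher without overlap. Pierce1, in contrast, differed by only 0.14 ± 0.12 at 18 mg/kg, and Foxj1 by 0.15 ± 0.16, both with overlap. Of the wider list of 30 cilium genes, 22 were above 0 with a median of 0.14, where 50.2% of all genes were above 0. Striatal markers had 16 of 18 above 0 there, with a median of 0.28. Thalamic and basal forebrain markers had 10 of 11 (0.30), and choroid plexus and ependymal markers 7 of 10 (0.20). Higher without overlap were 6 cilium, 5 striatal, 3 thalamic and 0 choroid plexus genes (6.76% over all genes). Cytosolic ribosomal proteins, by contrast, had a median of -0.03. Inpp4b, a phosphoinositide phosphatase outside the leading 12, was higher by 0.78 ± 0.20 after 3 mg/kg and by 0.61 ± 0.20 after 18 mg/kg. Its dimmer second probe set differed by only 0.15 after 3 mg/kg. By contrast, Rd3l, Gng13 and Mmp14 differed by 0.15 ± 0.13, 0.05 ± 0.17 and 0.12 ± 0.18 at the higher dose. Among the lower genes, Chn1 (-0.28 ± 0.10), Ipo9 (-0.34 ± 0.10) and Scn2a (-0.22 ± 0.09) kept their sign at 18 mg/kg, while Lrp6 was at 0.01 ± 0.16.

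**Figure D3:**
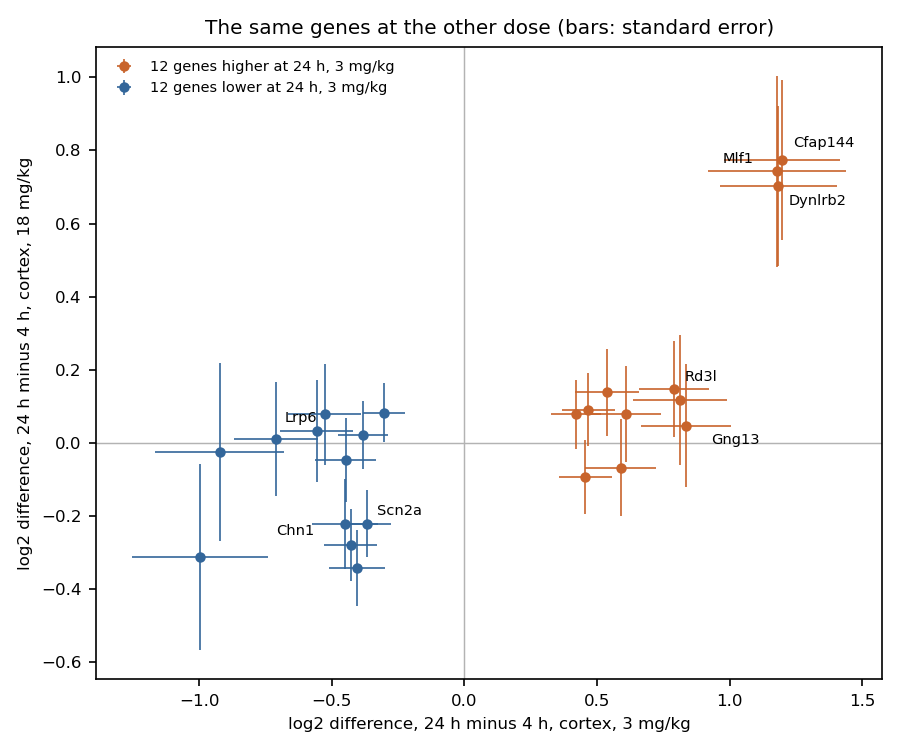
Difference between 24 h and 4 h in cortex for the 12 leading genes in each direction, after 3 mg/kg (horizontal) and after 18 mg/kg (vertical), in log2 units with standard errors as bars. The genes were chosen on the horizontal axis only; Cfap144, Dynlrb2 and Mlf1 lie apart at the upper right, and the other 21 genes lie between -0.34 and 0.15 on the vertical axis.

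Over all genes that do not follow Alb, the directions at the 2 doses were partly shared. Of 1608 genes higher without overlap after 3 mg/kg, 1098 (68.3%) were above 0 after 18 mg/kg, against 51.0% of all 13950 genes, and 200 were higher without overlap at both doses. These 200 are 12.4% of the genes higher after 3 mg/kg and 20.8% of the 961 higher after 18 mg/kg, where 6.89% of all genes were higher without overlap. Of 1112 genes lower after 3 mg/kg, 708 (63.7%) were below 0 after 18 mg/kg, against 49.0%, and 137 were lower without overlap at both, which is 12.3% of the genes lower after 3 mg/kg and 12.6% of the 1086 lower after 18 mg/kg, where 7.78% of all genes were lower without overlap. The difference between the doses was tested itself, and in limma 0 probe sets passed. Its smallest adjusted p was 0.96, and 1412 unadjusted p-values (4.55%) were under 0.05. Where a gene such as Rd3l (3 minus 18 mg/kg: 0.64 ± 0.19) differed more at 3 mg/kg, this difference did not pass either. Gene span differed between the sets. The genes lower without overlap after 3 mg/kg had a median RefSeq span of 33.9 kb, those higher 20.6 kb and all genes 22.4 kb, whereas after 18 mg/kg the lower genes had 20.3 kb and the higher genes 29.7 kb.

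Liver of the 3 mg/kg arm, on 6 arrays of its own, gave 98 calls (0.316%) over the same interval. There the clock genes changed: Per3, a period gene, fell by 2.22 ± 0.22, Nr1d1, the REV-ERB alpha repressor, fell by 1.94 ± 0.38 and Dbp fell by 1.62 ± 0.31, and Cry1 rose by 1.42 ± 0.23. In cortex Per3 was at 7.61, 7.63 and 7.79 at 4 h and at 7.50, 7.76 and 7.77 at 24 h, which overlap fully, with a difference of 0.00 ± 0.18. In the test of the difference between the tissues 4 probe sets passed (0.0129%), and 1288 unadjusted p-values (4.15%) were under 0.05. Per3 was 1 of them, with a cortex minus liver difference of 2.22 and an adjusted p of 0.00062. Nr1d1 and Dbp were not among the 4, so a different course in the tissues was not shown for them. The other 3 were Ccnb1, Cxcl1 and Fam83d, which all changed in liver, while in cortex they differed by -0.10 ± 0.14, -0.04 ± 0.13 and -0.29 ± 0.13.

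**Figure D4:**
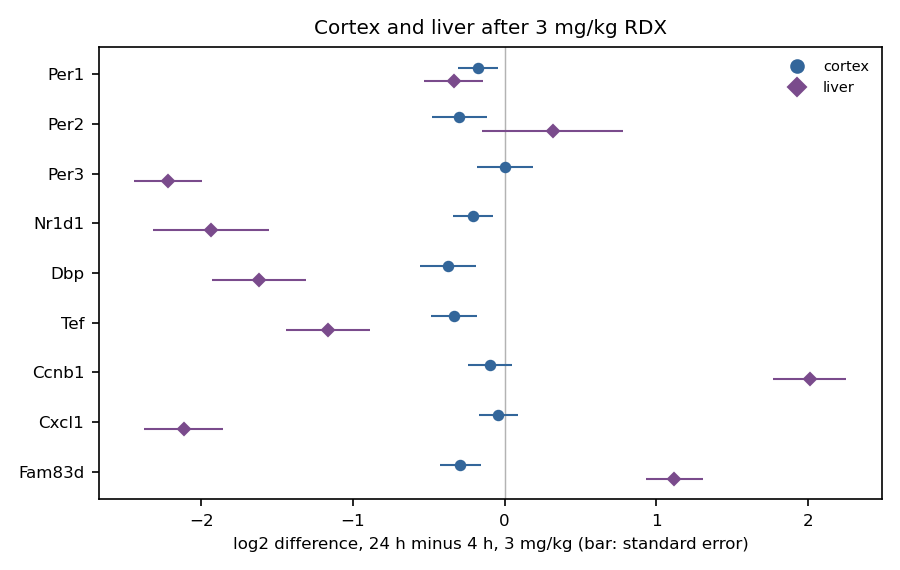
Difference between 24 h and 4 h after 3 mg/kg for 6 clock genes and 3 other genes in cortex (blue circles) and liver (purple diamonds), in log2 units with standard errors as bars. Cortex values lie within 0.4 of 0, while Per3 and Cxcl1 in liver lie below -2 and Ccnb1 in liver lies above 2.

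Ephx2, the soluble epoxide hydrolase that breaks down lipid epoxides, had the largest gap between its nearest 4 h and 24 h arrays of the genes named here, 1.63, and was chosen after its values were seen. It was at 7.76, 7.34 and 8.17 at 4 h and at 5.64, 5.67 and 5.71 at 24 h, a difference of -2.08 ± 0.57 (adjusted p = 0.40). With only these 6 arrays in the fit it passed (adjusted p = 0.031), since the SE then was 0.18. The larger SE over 24 arrays came from groups that held both levels. At 48 h after 3 mg/kg the arrays read 7.60, 5.76 and 5.65, and at 4 h after 18 mg/kg they read 7.79, 5.66 and 5.65. Over the 24 cortex arrays 9 lay between 5.60 and 5.81 and 15 between 6.97 and 8.17, with none in between. Liver had the same picture, with 9 arrays from 6.80 to 7.70 and 15 from 8.84 to 10.63. The liver arrays of the groups compared were at 10.37, 10.32 and 9.99 at 4 h and at 6.80, 7.10 and 6.82 at 24 h. In 22 of 24 cases the cortex and liver array of the same dose, time and replicate number lay on the same side, including all 12 of the 3 mg/kg arm. Whether these numbers stand for the same animal is not given.

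**Figure D5:**
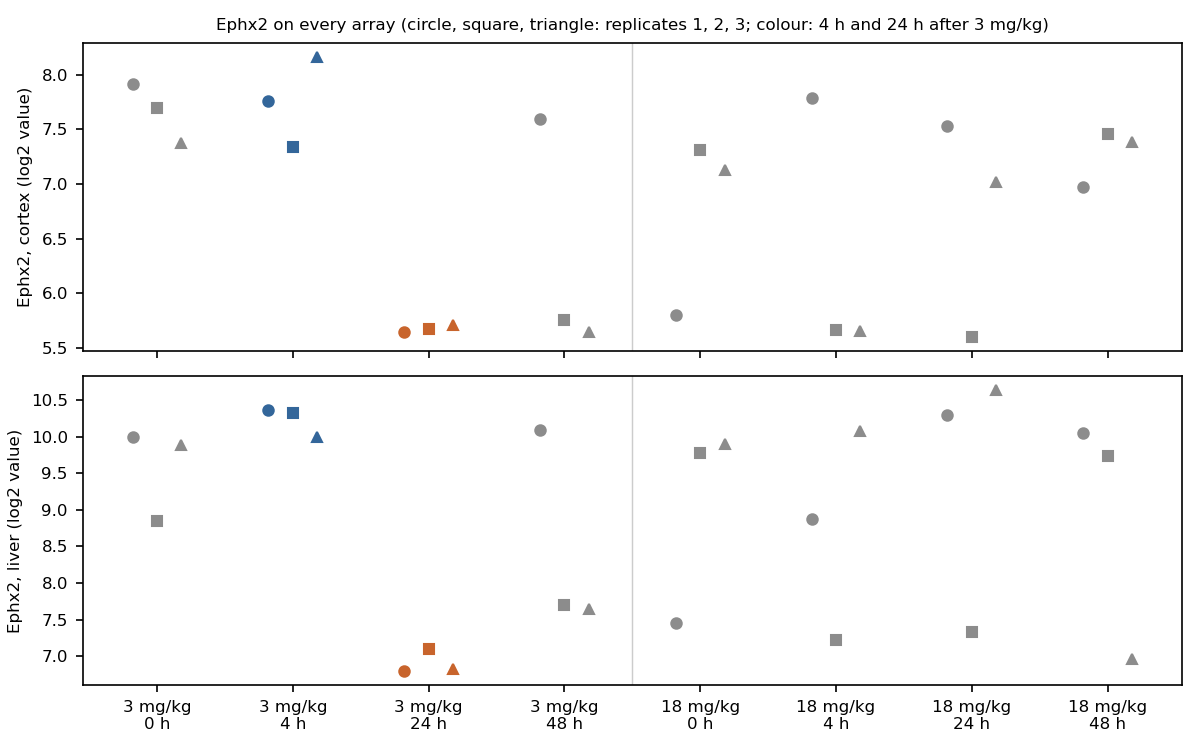
Log2 value of Ephx2 on each of the 24 cortex arrays (top) and 24 liver arrays (bottom), by dose and time, with replicates 1, 2 and 3 as circle, square and triangle. The 4 h (blue) and 24 h (orange) arrays after 3 mg/kg lie wholly on opposite sides of an empty range in both tissues, while 48 h after 3 mg/kg and 0, 4 and 24 h after 18 mg/kg hold arrays on both sides in cortex.

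Probe sets without a gene symbol were among the tightest. The probe set 1391569_at was at 7.37, 7.46 and 7.70 at 4 h and at 6.25, 6.33 and 6.45 at 24 h, with a difference of -1.17 ± 0.19 (adjusted p = 0.085), and it passed in the fits with only the 6 arrays, with array weights and with the actin gap as a covariate. The probe set 1383468_at was at 10.18, 9.88 and 10.11 and then at 8.08, 8.11 and 8.49. Its groups were 1.39 apart at the nearest, and it passed with only the 6 arrays (adjusted p = 0.016) and not otherwise (0.34 over the 24 arrays). Both were chosen after their values were seen.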

How the data were processed

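Total RNA of cortex and liver was measured on 48 Affymetrix rat arrays of 31099 probe sets. The deposited values are log2 intensities, made with RMA in Partek per the submitters' processing notes; versions are not given in the sources used here. Array means were nearly equal, so a shift of all genes would not be seen, while array SDs ran from 1.38 to 2.16, and the number of arrays limits the precision. From these values, 57 Affymetrix control probe sets were left out and 31042 tested with limma 3.58.1 in R 4.3.3 (lmFit, eBayes, Benjamini-Hochberg, adjusted p under 0.05). The 8 cortex groups shared a fit over 24 arrays, and the tissue difference a fit over 48 arrays. Gene names came from the platform annotation (20826 probe sets with 1 symbol, 436 with several, 9780 with none), and a gene was its probe set with the highest cortex mean.

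Named genes were the 12 largest changes in each direction past the threshold, filled up by smallest unadjusted p, up to 4 per gene list, and a short fixed set. Genes following Alb were passed over. The members and lists were chosen with earlier results of these data known. Alternatives were the arrays fitted, array weights, a replicate block, the actin gap or hepatocyte mean as a covariate, quantile or median scaling, a brightness filter, variance options and leaving out each array.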

Additional observations from a re-analysis of the deposited data

Results flagged for a closer look

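For 4 genes, the difference between 24 h and 4 h after 3 mg/kg was not the same in cortex and liver by a test of that difference itself (limma interaction term over 48 arrays). Each gene was read on its brightest probe set in cortex. Per3 and Ccnb1 each have a dimmer second probe set, and these did not pass. Per3, a period gene of the clock, stood 2.22 higher in cortex than in liver on the log2 scale, with 0.00 ± 0.18 (SE) in cortex and -2.22 ± 0.22 in liver (adjusted p = 0.00062). Ccnb1, the mitotic cyclin B1, had a cortex minus liver difference of -2.11, from -0.10 in cortex and 2.01 in liver (adjusted p = 0.0062). Cxcl1, a neutrophil chemokine, had 2.08, from -0.04 in cortex and -2.12 in liver (adjusted p = 0.016). Fam83d, a protein of the mitotic spindle, had -1.41, from -0.29 in cortex and 1.12 in liver (adjusted p = 0.046). In cortex Fam83d was at 5.72, 5.68 and 5.80 at 4 h and at 5.24, 5.45 and 5.64 at 24 h, without overlap. When each of the 12 arrays of the 4 groups was left out in turn, Per3 (adjusted p up to 0.0054) and Ccnb1 (up to 0.044) passed in all 12 fits. Cxcl1 passed in 5 and missed in 7 (adjusted p from 0.024 to 0.117), and Fam83d passed in 3 and missed in 9 (0.010 to 0.304). Fam83d passed only without cortex 24 h replicate 3, liver 4 h replicate 1 or liver 24 h replicate 3, and Cxcl1 without these, cortex 4 h replicate 2 or liver 24 h replicate 1.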

How the results depend on the processing

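Calls in the 3 mg/kg cortex comparison numbered 0 over the 24 arrays, 3 with only the 6 arrays, 11 with the actin gap as a covariate, 2 with array weights and 8 with the 14 arrays of small gap, and 0 (0 to 0) when each array was left out. The replicate numbers were checked as a pairing. Deviations of same-numbered 4 h and 24 h arrays correlated at 0.019, -0.018 and 0.169 for replicates 1, 2 and 3. With 3 arrays a group, such correlations cannot show whether same-numbered samples share more than a number. The replicate block gave 0 calls at either dose, 0 for the dose difference and 3 for the tissue difference, where Fam83d missed (adjusted p = 0.071). At 18 mg/kg the hepatocyte mean as a covariate gave 1 call, and leaving out arrays gave 0 to 0, as for the dose difference. The tissue difference gave 53 calls with only the 12 arrays and 2 to 5 when an array was left out, where Per3 ranged from 2.16 to 2.33, Ccnb1 from -2.33 to -1.94, Cxcl1 from 1.95 to 2.18 and Fam83d from -1.60 to -1.25. Of 92 named genes, 88 kept their sign in every other setting in which they were run, which was all 18 for 78 genes and all but the brightness filter for 14. Leaving out 1 array moved 15 of the 92 by over 1.5 times. For 18 of 32 gene lists the median stayed within 1 SD in all settings run. Per3 in cortex was at -0.00028 with the hepatocyte covariate, at -0.077 without both 4 h replicate 1 and 24 h replicate 3, and at -0.043 to 0.091 when an array was left out. Alb was at 0.93 and 0.71 in the first pair of settings and at -2.12 to 1.22. Fos was at -0.28 with array weights and at -0.33 to 0.46, and Arc at -0.079 to 0.56. The causes were not tested, and 3 arrays a group limit what can pass. The setting without those 2 arrays and that with 14 arrays were chosen after seeing the data.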
